A study of Bos taurus with 8 samples.

Results

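Nucleoside uptake, salvage and degradation was followed through 10 genes, chosen by gene symbol, in the jejunum of 8 Holstein bull calves. Rows for 9 of the 10 genes were found among the 17932 genes of the deposited table, and TYMP was not analysed here. The DCLI group (n = 4) was fed 1 g/d of a postbiotic, heat-killed cells of Limosilactobacillus ingluviei, mixed into the milk replacer. The CON group (n = 4) had the same milk replacer and starter without the postbiotic. The 4 calves sampled per group were drawn at random from 7, all were weaned by day 89, and jejunal tissue was taken on day 90. Days were counted from arrival at the trial farm, so they are not ages. Each library came from 1 calf, named DCLI1 to DCLI4 and CON1 to CON4, so errors describe variation between animals. Values are TPM, a transcript's share of its library corrected for transcript length, and a TPM keeps no read depth.

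Nucleic acids that reach the small intestine are cut to nucleotides, and enzymes at the epithelial surface take off the phosphate. The nucleosides released are carried into enterocytes, where kinases return them to the nucleotide pool (salvage) or phosphorylases and deaminases start their breakdown. Purines leave this route as uric acid and its products. Adenosine formed outside cells is also a signal that acts on its own receptors. In ruminants, microbes leaving the rumen add to the nucleic acids that the small intestine receives.

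In these data the uridine-cytidine kinase UCK2 had lower values in all 4 DCLI calves than in any CON calf, at 0.397 times the CON mean, whereas its relative UCK1 overlapped between the groups. The ecto-nucleotidase NT5E and the purine-preferring carrier SLC28A2 had DCLI means of 3.596 and 3.05 times those of CON, with overlap between the groups. For ADA and SLC28A1 the log2 fold changes of -0.59 and 1.45 became -0.08 and 0.34 without the single calf CON4. Of the 9 genes, 7 reached 1 TPM in 4 or more libraries and were tested with limma, fitted on log2(TPM + 1) over 13228 genes. Of the 7, limma called 0 (adjusted p under 0.05 with a log2 fold change of 1 or more in size), against 0.0% of all genes tested. The paper, which used DESeq2 rather than limma on TPM, did report genes that differed between these libraries. At an unadjusted p under 0.05, limma passed 2 of the 7, against 7.08% of all genes tested. These were NT5E, higher in DCLI as were 4.09% of genes, and UCK2, lower in DCLI as were 2.99% of genes. The groups did not overlap for 1 of the 7, UCK2, against 5.39% of all genes. The log2 fold change was above 0 for 4 of the 7 and below 0 for 3, against 43.5% above and 56.5% below over all genes.

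**Figure D1:**
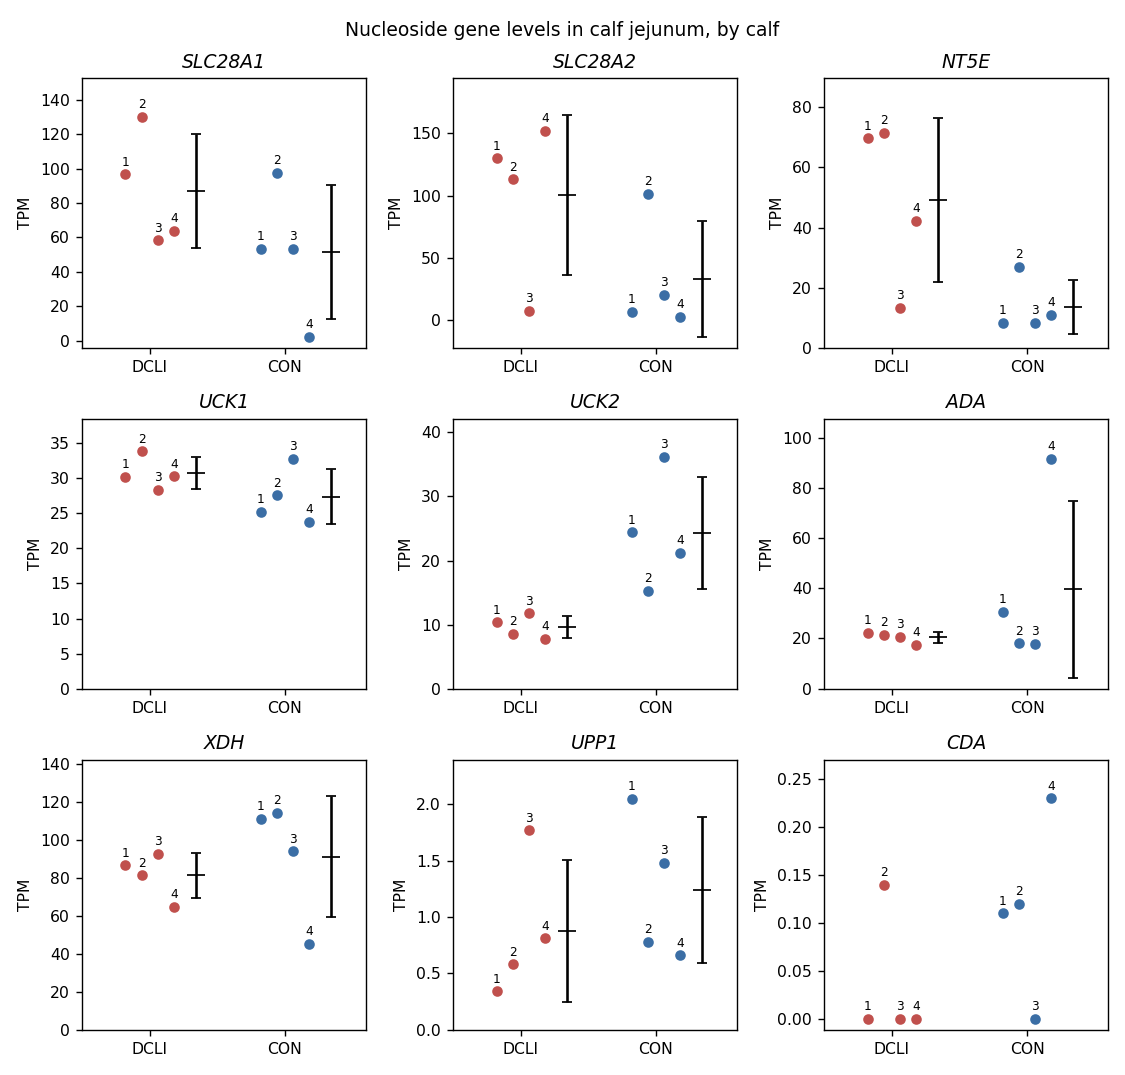
TPM (y axis) of the 9 nucleoside genes in each DCLI and CON calf. Each point is 1 calf, its number stands above it, and the bar gives the mean and SD (n = 4), with no bar for CDA, which was listed at 0 in 4 calves. UCK2 lay between 7.85 and 11.8 in DCLI and between 15.3 and 36.2 in CON.

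Libraries stood apart within both groups, and the values bear on the genes below. The summed TPM of 8 B cell markers was 18.4 to 39.2 in DCLI, 18.2 to 38.0 in CON1 to CON3 and 3369 in CON4. The mean level of 10 enterocyte markers on the log2(TPM + 1) scale was 8.11 to 8.42 in DCLI, 7.40 to 8.26 in CON1 to CON3 and 5.17 in CON4. Of the enterocyte markers, ALPI was listed at 0 in CON4. Marker levels of intestinal position differed between calves as well. The summed TPM of 6 distal markers was 1109 to 29106 in DCLI and 1542 to 75222 in CON, and 6 of 6 had a log2 fold change below 0. For 6 proximal markers the sum was 3294 to 20822 in DCLI and 47.0 to 5703 in CON, with LCT listed at 0 in CON3 and CON4 and FABP1 at 0 in CON4. The study listed FABP1 and SLC46A1 of the proximal markers as higher in DCLI in these same libraries. It listed PAX5 and CR2 of the B cell markers as lower. The differences of these 2 marker sets between the groups are therefore not independent of that list. Of the 7 stroma and smooth muscle markers, 7 had a log2 fold change below 0, with sums of 903 to 3016 in DCLI and 1424 to 7431 in CON. The label for RNA extraction names liver. The 5 liver markers summed to 386 to 716 TPM in DCLI and 66.3 to 556 TPM in CON, nearly all of it from APOB and CPS1, which enterocytes express too, except in CON4, where TTR had 53.8 TPM. The 3 that were tested, APOB, CPS1 and SERPINA1, had log2 fold changes above 0 (median 2.05). ALB, the defining hepatocyte gene, had at most 1.07 TPM, and VIL1 (villin, of enterocyte microvilli) at least 117 TPM. In bulk tissue, fewer cells of a type and less RNA per cell cannot be told apart.

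SLC28A1 encodes the sodium-dependent carrier that prefers pyrimidine nucleosides. Its TPM was 96.6, 129.9, 58.2 and 63.7 in DCLI calves 1 to 4, against 53.3, 97.5, 53.2 and 2.03 in CON1 to CON4. CON2 lay within the DCLI range, CON1 and CON3 were just under it, and CON4 was far below every other calf. The log2 fold change, on log2(TPM + 1), was 1.45 (SE 0.96, limma adjusted p = 0.743). Without CON4 it was 0.34 and with array weights, which give less weight to calves that stand apart, 0.10. The covariates moved it in opposite ways, to -0.50 with the enterocyte marker level and to 2.62 with the distal marker level (unadjusted p = 0.0332 and limma adjusted p = 0.276). The mean of DCLI was 87.1 ± 33.2 TPM and that of CON was 51.5 ± 39.0 TPM (SD, n = 4 each).

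SLC28A2 encodes the related carrier that prefers purine nucleosides. In the DCLI calves its TPM was 130.0, 113.2, 7.42 and 151.9, and in CON1 to CON4 it was 6.95, 101.5, 20.7 and 2.73. Thus 3 DCLI calves and CON2 were above 100 TPM, while DCLI3 and the other 3 CON calves were at 20.7 TPM or less. The highest calf had 55.6 times the TPM of the lowest. Its log2 fold change was 2.05 (SE 1.18, limma adjusted p = 0.739), and it ranged over the calves left out in turn from 1.35 without CON4 to 3.04 without DCLI3. It was 2.94 without CON2. With array weights it was 0.06 and with the enterocyte marker level as a covariate 0.42.

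DCLI3, the DCLI calf with low SLC28A2, was also the DCLI calf with the most FABP6, a carrier of bile acids in ileal enterocytes. The TPM of FABP6 was 25603 in DCLI3, and 0.76, 13.2 and 37.5 in DCLI1, DCLI2 and DCLI4. In CON it was 68963, 26023, 50176 and 1066 in CON1 to CON4. CON2, with high SLC28A2, thus had less FABP6 than CON1 and CON3, but CON4 had the least FABP6 of the CON calves and the lowest SLC28A2 of all 8. With the distal marker level as a covariate, the log2 fold change of SLC28A2 was 1.65.

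**Figure D2:**
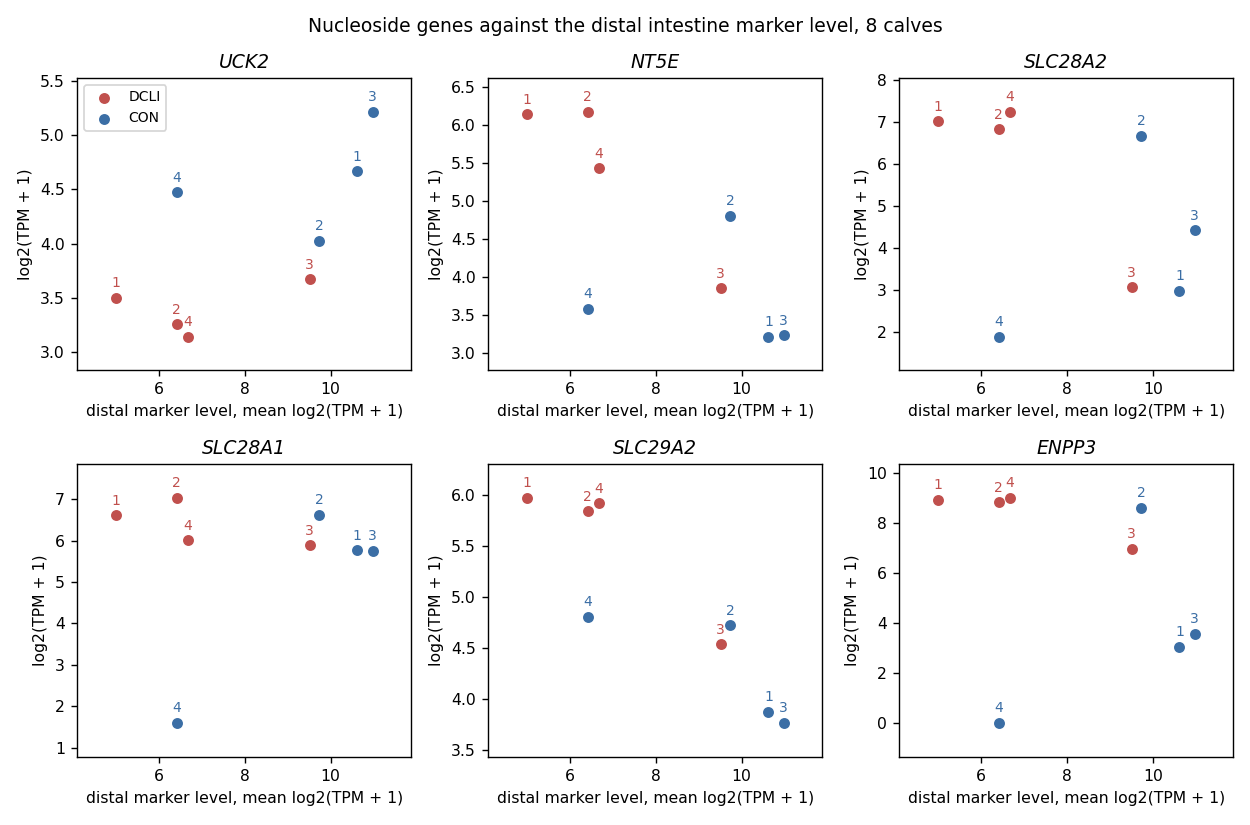
Levels of 6 nucleoside genes (y axis, log2(TPM + 1)) against the mean level of 6 distal small intestine markers (x axis, log2(TPM + 1)). Each point is 1 calf with its number. Distal levels were 4.99 to 6.66 in DCLI1, DCLI2 and DCLI4 and 9.51 in DCLI3, against 9.74 to 11.0 in CON1 to CON3 and 6.41 in CON4.

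NT5E encodes the membrane-bound nucleotidase CD73, which turns extracellular AMP into adenosine. Its TPM was 69.6, 71.4, 13.4 and 42.1 in DCLI calves 1 to 4, against 8.28, 27.0, 8.41 and 11.0 in CON1 to CON4. DCLI1, DCLI2 and DCLI4 were above every CON calf, and DCLI3 was above every CON calf but CON2. The mean was 49.1 ± 27.3 TPM in DCLI and 13.7 ± 8.98 TPM in CON (SD, n = 4 each). The log2 fold change was 1.69 (SE 0.56, 95% interval 0.42 to 2.96, limma adjusted p = 0.692), and its unadjusted p was 0.0146. CON2 was thus the only CON calf that made the groups overlap, so leaving it out had to separate them. With CON2 left out, 6.8% of all genes tested had every DCLI calf above every CON calf. That share does not allow for picking CON2 from the NT5E values. Without CON2 the log2 fold change was 2.06 (limma adjusted p = 0.283, against 0.283 to 0.943 over all alternatives). The unadjusted p by limma no longer passed 0.05 in 3 other fits. In these NT5E had a log2 fold change of 1.00 with the distal marker level as a covariate (unadjusted p = 0.131), 1.01 with array weights (unadjusted p = 0.133) and 1.39 with the enterocyte marker level as a covariate (unadjusted p = 0.0709).

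UCK1 and UCK2 encode the uridine-cytidine kinases, which add the first phosphate to uridine and cytidine in pyrimidine salvage. UCK1 was the steadiest of the 9 genes, with a TPM of 30.2, 33.8, 28.4 and 30.3 in DCLI calves 1 to 4, against 25.2, 27.6, 32.7 and 23.8 in CON1 to CON4. Its highest value was 1.42 times its lowest. Its log2 fold change was 0.17 (SE 0.17, 95% interval -0.22 to 0.56, limma adjusted p = 0.797), so a UCK1 level higher in DCLI by more than 0.56, or lower beyond -0.22, lay outside the interval.

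UCK2 had a TPM of 10.35, 8.59, 11.8 and 7.85 in DCLI calves 1 to 4, against 24.4, 15.3, 36.2 and 21.2 in CON1 to CON4. The highest DCLI calf was below the lowest CON calf, and DCLI values were also less spread, with 9.64 ± 1.77 TPM in DCLI and 24.3 ± 8.78 TPM in CON (SD, n = 4 each). Of all genes tested, 3.11% had every DCLI calf below every CON calf. Only 20 of the 13228 genes had a smaller p in limma than UCK2 (unadjusted p = 0.00168), but the adjusted p was 0.692. UCK2 belongs to the genes that the study listed as differing between these same libraries, so its direction here is not independent evidence. The 95% interval of its log2 fold change was -1.81 to -0.59.

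The lower level of UCK2 in DCLI kept its direction in every alternative run. Because every DCLI calf lay below every CON calf, leaving out a calf could not turn it, so those runs bear only on its size. Without CON4 the log2 fold change was -1.24 and without DCLI3 it was -1.29, while without CON3, the calf with the most UCK2, it was -0.99. With the enterocyte marker level as a covariate it was -1.14, and with array weights -0.85. With the distal marker level as a covariate it was -0.999 (SE 0.33, unadjusted p = 0.0157 and limma adjusted p = 0.276). The mean level of the stroma and smooth muscle markers on the log2(TPM + 1) scale was 6.47 to 7.58 in DCLI, 7.19 to 7.94 in the other CON calves and 8.94 in CON3, and the part of these cells in the UCK2 values was not tested.

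**Figure D3:**
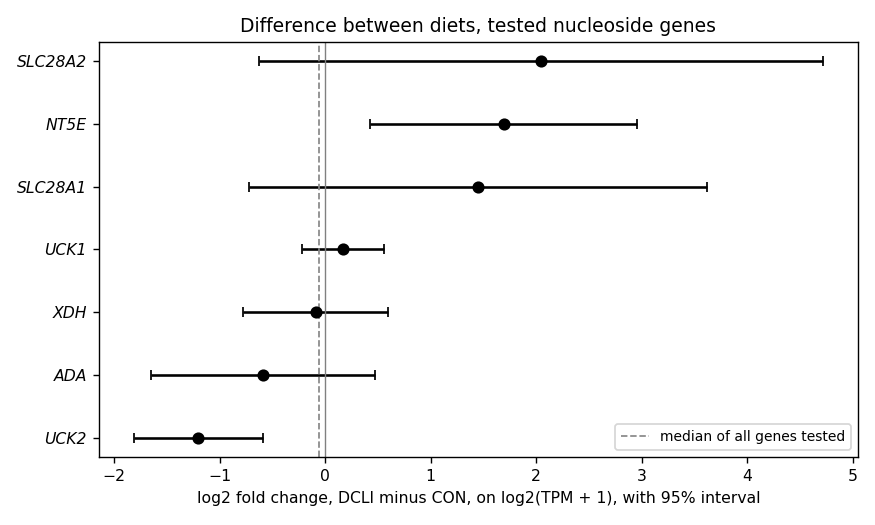
Log2 fold change of the 7 tested nucleoside genes (x axis, DCLI minus CON on log2(TPM + 1)) with its 95% interval from limma. The dashed line is the median of all genes tested, -0.06. The intervals of UCK2 (-1.81 to -0.59) and NT5E (0.42 to 2.96) do not include 0.

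Since both kinases were measured in the same library, their ratio does not depend on how the library was scaled. UCK2 had 0.345, 0.256, 0.417 and 0.262 times the TPM of UCK1 in DCLI calves 1 to 4, against 0.968, 0.557, 1.11 and 0.894 times in CON1 to CON4. Thus the kinases were at similar levels in 3 CON calves. UCK1 exceeded UCK2 in every DCLI calf and, by a smaller factor, also in CON1, CON2 and CON4. The mean log2 ratio was -1.67 ± 0.34 in DCLI and -0.23 ± 0.43 in CON (SD, n = 4 each), and the groups did not overlap. A 2-sided exact permutation test over the 70 assignments of the calves gave p = 0.0286, the smallest p that 4 calves against 4 allow. Over the 3 ratios compared in this way, the adjusted p was 0.0857 in the same exact permutation test. UCK2 alone already separated the groups and UCK1 varied little, so this result is not separate evidence from the UCK2 values. The ratio was also chosen with earlier results of these data known.

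For the carriers, SLC28A2 over SLC28A1, the log2 ratio was 0.43, -0.20, -2.95 and 1.25 in DCLI calves 1 to 4, against -2.92, 0.06, -1.36 and 0.41 in CON1 to CON4. The lowest values were those of DCLI3 and CON1, and the difference of 0.59 was within the spread between calves (p = 0.686, exact permutation test). For ADA over NT5E, enzymes that remove and release adenosine, the log2 ratio was -1.64, -1.74, 0.62 and -1.28 in DCLI, and 1.87, -0.58, 1.07 and 3.05 in CON. CON2 lay below DCLI3, so the groups overlapped. The mean difference was -2.37 (p = 0.0571 and adjusted p = 0.0857, 2-sided exact permutation test), and without CON4 it was -1.80.

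**Figure D4:**
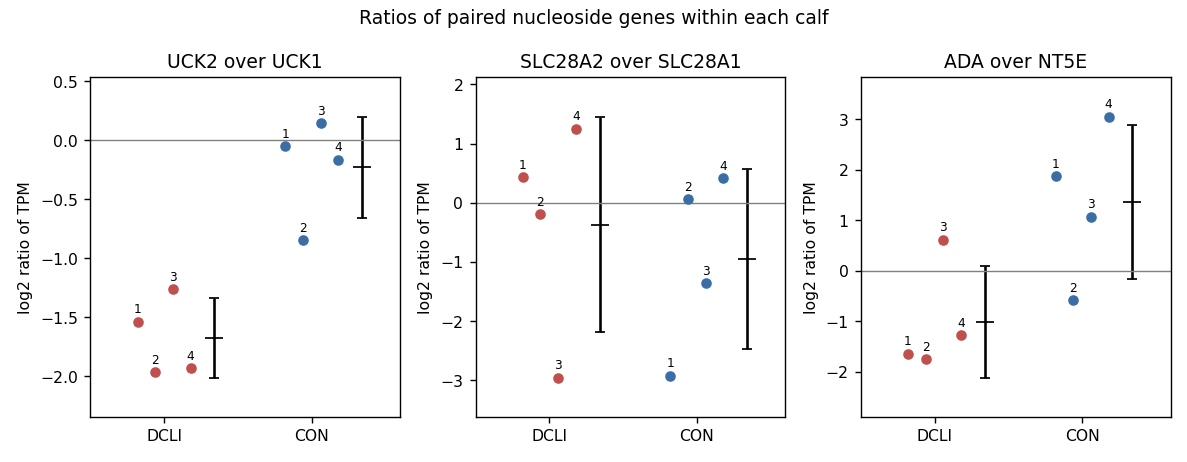
Log2 ratio of TPM within each calf (y axis) for UCK2 over UCK1, SLC28A2 over SLC28A1 and ADA over NT5E. Points are calves with their number, bars are the mean and SD (n = 4). UCK2 over UCK1 was -1.96 to -1.26 in DCLI and -0.84 to 0.14 in CON.

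ADA encodes adenosine deaminase, which turns adenosine and deoxyadenosine into inosine and deoxyinosine. Its TPM was 22.3, 21.3, 20.6 and 17.3 in DCLI calves 1 to 4, against 30.6, 18.1, 17.8 and 91.6 in CON1 to CON4. CON4 was far above the rest, and the other calves lay between 17.3 and 30.6 TPM. The log2 fold change was -0.59 (SE 0.47, limma adjusted p = 0.759) with all calves and -0.08 without CON4. It turned to 0.071 with array weights and to 0.30 with the enterocyte marker level as a covariate, whereas with the distal marker level it was -1.25 (unadjusted p = 0.0254 and limma adjusted p = 0.276). MKI67, a marker of dividing cells, had 6.31 to 19.0 TPM in DCLI, 4.65 to 13.8 TPM in CON1 to CON3 and 134.9 TPM in CON4. CON4 had the B cell and enterocyte levels given above too, and their part in the ADA and SLC28A1 values was not tested.

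XDH encodes xanthine oxidoreductase, which carries out the last steps from hypoxanthine to uric acid and is also a known protein of the bovine milk fat globule. Its TPM was 86.5, 81.2, 92.6 and 64.6 in DCLI calves 1 to 4, against 111.2, 114.3, 93.9 and 45.2 in CON1 to CON4. In both groups it ranked high, at a mean percentile of 91.6 among all genes in DCLI and 91.4 in CON. With all calves the groups overlapped, with a log2 fold change of -0.09 (SE 0.30, limma adjusted p = 0.935). CON4 was the only CON calf below any DCLI calf, so leaving it out had to separate the groups. With CON4 left out, 6.31% of all genes tested had every DCLI calf below every CON calf. That share does not allow for picking CON4 from the XDH values. Without CON4 the log2 fold change was -0.39 (SE 0.16, limma unadjusted p = 0.041 and adjusted p = 0.473). The log2 fold change was above 0 without CON1 (0.033), CON2 (0.046) or DCLI4 (0.014). With the enterocyte marker level as a covariate it was -0.60 (limma adjusted p = 0.686). With the distal marker level as a covariate it was 0.33, in the other direction.

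UPP1, uridine phosphorylase, and CDA, cytidine deaminase, were scarce and stayed under the TPM limit for testing. The TPM of UPP1 was 0.34, 0.58, 1.77 and 0.81 in DCLI calves 1 to 4, against 2.05, 0.78, 1.48 and 0.66 in CON1 to CON4. CDA was listed at 0.14 TPM in DCLI2 and at 0 in the other DCLI calves, and at 0.11, 0.12, 0 and 0.23 TPM in CON1 to CON4. With no filter, the log2 fold change of UPP1 was -0.27 (SE 0.27, limma adjusted p = 0.814). At these levels no difference was detectable for either gene.

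Ordered by mean TPM, the genes ran SLC28A2 (100.6 ± 64.1), SLC28A1 (87.1 ± 33.2), XDH (81.2 ± 12.0), NT5E (49.1 ± 27.3), UCK1 (30.7 ± 2.27), ADA (20.4 ± 2.15) and UCK2 (9.64 ± 1.77) in DCLI (SD, n = 4). Each of the first 5 overlapped with its neighbour, whereas the ranges of UCK1, ADA and UCK2 were separate. In CON the order was XDH (91.2 ± 31.9), SLC28A1 (51.5 ± 39.0), ADA (39.5 ± 35.3), SLC28A2 (33.0 ± 46.3), UCK1 (27.3 ± 3.93), UCK2 (24.3 ± 8.78) and NT5E (13.7 ± 8.98), and every neighbour in this order overlapped (SD, n = 4). The place of ADA in CON rested on CON4. Without that calf ADA averaged 22.1 ± 7.30 TPM (SD, n = 3), below SLC28A2 at 43.0, UCK1 at 28.5 and UCK2 at 25.3 TPM.

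Several of the genes were listed as more than 1 transcript. Their shares were estimated by the authors' quantification and varied between calves within each group. The main transcript of ADA held 74.9% ± 8.40 of the gene's TPM in DCLI and 69.0% ± 9.80 in CON, that of UCK1 76.7% ± 10.2 in DCLI and 72.8% ± 7.69 in CON, and that of SLC28A1 90.8% ± 4.52 in DCLI and 91.1% ± 6.07 in CON (SD, n = 4 each). For SLC28A2 it was 98.7% to 99.2% in DCLI and 98.2% to 99.3% in CON. None of these shares differed by more than the spread between calves. Which of the 4 transcripts of UPP1 was above 0 changed from calf to calf. UCK2, NT5E, XDH and CDA were each listed as 1 transcript.

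**Figure D5:**
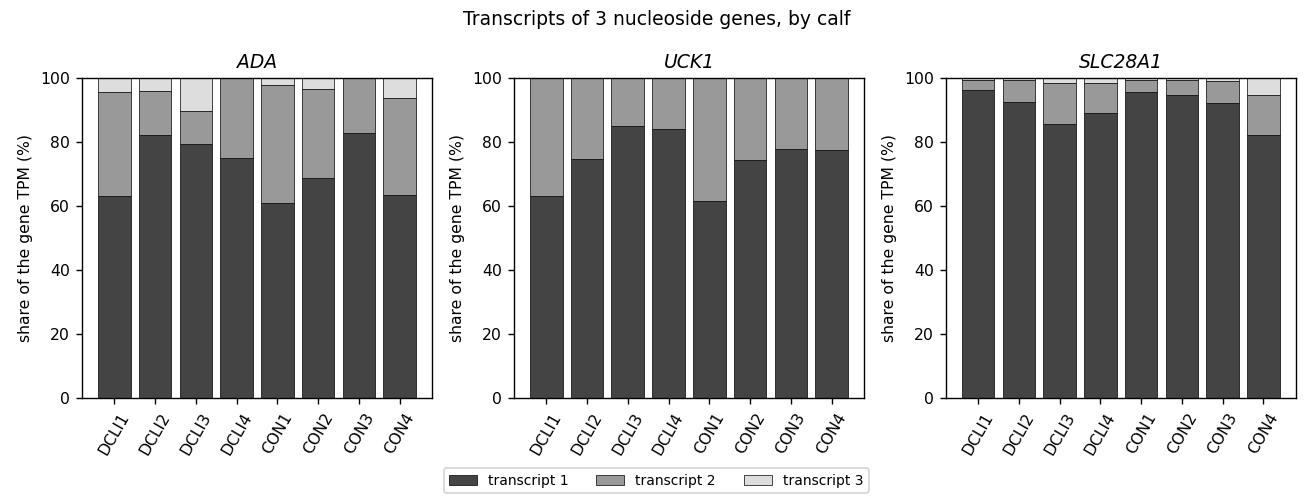
Share of each transcript in the gene's TPM (y axis, percent) for ADA, UCK1 and SLC28A1 in each calf (x axis), with transcripts numbered by their mean TPM over the 8 calves. The main transcript of SLC28A1 held 82.3% in CON4 and 85.6% to 96.1% in DCLI.

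Other genes of the same routes were read from lists, with a median log2 fold change of -0.06 over all genes tested as the background. Of 5 other nucleoside transporters, 3 had a log2 fold change above 0 and 2 below, and the median was 0.15. SLC29A2, an equilibrative nucleoside carrier, had 61.6, 56.1, 22.1 and 59.4 TPM in DCLI calves 1 to 4, against 13.7, 25.4, 12.6 and 26.9 TPM in CON1 to CON4. DCLI3 alone among the DCLI calves lay within the CON range. Its log2 fold change was 1.27 (SE 0.39, unadjusted p = 0.00958 and limma adjusted p = 0.692). SLC29A1, the other main equilibrative carrier, had lower values in DCLI, at 47.2, 32.3, 40.9 and 46.3 TPM, than in any CON calf, at 73.2, 51.5, 52.0 and 94.7 TPM. Of all genes tested, 3.11% had every DCLI calf below every CON calf. The log2 fold change of SLC29A1 was -0.66 (SE 0.24, limma adjusted p = 0.696).

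Of 10 other salvage enzymes, 5 had a log2 fold change above 0 and 5 below (median -0.001). CMPK1, the kinase that adds the second phosphate to UMP and CMP, had all 4 DCLI values above those of CON, as for 2.28% of all genes tested. Its TPM was 114.3, 138.2, 95.1 and 116.6 in DCLI calves 1 to 4, against 37.7, 87.9, 57.3 and 34.0 in CON1 to CON4. The log2 fold change was 1.17 (SE 0.30, limma adjusted p = 0.692). CMPK1 lay on the other side of 0 from UCK2 and on the same side as UCK1. Both uridine-cytidine kinases make UMP and CMP, and a contrast between CMPK1 and either of them was not tested. For TK1, a thymidine kinase of dividing cells, the log2 fold change was -0.58 (SE 0.52, limma adjusted p = 0.776), with the highest TPM, 95.4, in CON4.

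Of 14 other breakdown enzymes, 10 were tested, 6 above 0 and 4 below (median 0.06). AOX1, an aldehyde oxidase related to XDH, had 3.84 to 6.85 TPM in DCLI and 6.52 to 19.6 TPM in CON, with a log2 fold change of -0.79 (SE 0.33, limma adjusted p = 0.696). DPYD, which reduces uracil and thymine in the first step of their breakdown, had 9.04 to 17.1 TPM in DCLI and 2.99 to 9.92 TPM in CON, with a log2 fold change of 0.76 (SE 0.36, limma adjusted p = 0.712). The purine nucleoside phosphorylase PNP, named after its values were seen, had a log2 fold change of 0.001 (SE 0.36) with a TPM of 53.6 to 158.2 in DCLI and 80.1 to 160.9 in CON.

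Of 16 other nucleotidases and ectoenzymes, 13 were tested, 7 above 0 and 6 below (median 0.10). ENPP3, an ecto-enzyme that cleaves nucleotides at the cell surface, ranged widely between calves. Its TPM was 488.4, 460.2, 124.2 and 515.0 in DCLI calves 1 to 4, against 7.25, 393.0 and 10.9 in CON1 to CON3, and it was listed at 0 in CON4. As for SLC28A2, CON2 stood with the DCLI calves, and DCLI3 was the lowest of them. The log2 fold change was 4.63 (SE 1.52, unadjusted p = 0.0139 and limma adjusted p = 0.692), without CON2 it was 6.23 (limma adjusted p = 0.0741) and without CON4 it was 3.36 (limma adjusted p = 0.444). ALPL, the tissue-nonspecific alkaline phosphatase, had 2.01 to 7.82 TPM in DCLI and 7.39 to 25.4 TPM in CON, with a log2 fold change of -1.29 (SE 0.43, limma adjusted p = 0.692).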

How the data were processed

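Jejunal RNA of 8 calves was sequenced as poly(A)-selected libraries. Per the methods, the authors filtered reads with SOAPnuke, aligned them with HISAT2 to the bovine assembly ARS-UCD1.2 and quantified them with RSEM, and the submitters' processing notes name DESeq2 1.4.5. The deposited TPM values, 1 row per transcript with a column for each library, were summed here by gene ID from 50681 transcripts to 17932 genes. The deposited table also holds estimated counts in 76 rows, which were not used because the rest is empty, so no count model was fitted. DCLI was compared with CON by limma 3.58.1 (R 4.3.3; lmFit, eBayes with trend) on log2(TPM + 1), which understates the change of low genes, keeping the 13228 genes that reached 1 TPM in 4 or more libraries. P-values were adjusted by Benjamini-Hochberg over these genes, and a call required both 0.05 for the adjusted p and a log2 fold change of 1 or more in size. Ratios used a pseudocount of 0.1 and 2-sided exact permutation tests. The limma step was checked on simulated data for the size of known changes. Values were drawn for each gene separately, without the shared differences between libraries seen here, so the check does not bear on the 0 calls.

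The 10 genes, the lists and the tests were chosen with earlier results of these data known. Named genes were the 10 and, from each nucleotide list, the 2 that changed most in either direction. Also named were the 3 tested genes nearest in profile to each of the 10 with an SD of at least 1 on the log2(TPM + 1) scale. The marker genes chosen were VIL1, EPCAM, CD79A, MKI67, FABP6, APOA4 and ALB, of which EPCAM, CD79A and APOA4 are not shown singly. The markers ALPI, LCT, FABP1, TTR, APOB, CPS1 and SERPINA1 were outside this choice and, like PNP, were named after their values were seen. The distal marker covariate was added after the data were seen. Python 3.11.15 with pandas 2.3.3, numpy 2.4.6 and matplotlib 3.10.9 was used. TYMP was not analysed here, so its ratio with UPP1 was not computed.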

Additional observations from a re-analysis of the deposited data

Results flagged for a closer look

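Of 24 sets of 4 calves checked, 1 value in each of 2 stood far from the other 3 of its group, and chance flags about 1 set in 20. NT5E was 27.0 TPM in CON2, against 8.28 to 11.0 TPM in the other CON calves. CDA was listed at 0.14 TPM in DCLI2 and at 0 in the other DCLI calves.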

How the results depend on the processing

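Of the 7 tested nucleoside genes, 0 passed the threshold in any of the 19 alternatives, and UCK2, NT5E, SLC28A2 and UCK1 kept their direction in all of them, with log2 fold changes of -1.39 to -0.85 for UCK2, 1.00 to 2.21 for NT5E, 0.06 to 3.04 for SLC28A2 and 0.07 to 0.25 for UCK1. For UCK2, leaving out a calf could not turn the direction, because the groups did not overlap. The direction turned for ADA with array weights (0.071) and with the enterocyte level as a covariate (0.30), for SLC28A1 with that covariate (-0.50), and for XDH with the distal marker level as a covariate (0.33). With calves left out in turn, XDH ranged from -0.39 to 0.046 (above 0 without CON1, CON2 or DCLI4) and the log2 ratio of SLC28A2 over SLC28A1 from -0.070 to 1.45 (below 0 without CON1). The causes were not tested. Over all genes, limma called 0 genes, 1 with the distal covariate and 0 to 9 with calves left out in turn (9 without CON2, 1 without DCLI1, 0 otherwise). The number of genes with an unadjusted p under 0.05 was 937, 2296 with the distal covariate and 438 to 1345 with calves left out. Calves with the same number did not deviate together (r from -0.20 to 0.05, and 0 of 4 DCLI calves correlated best with the CON calf of their own number). With the replicate number as a block, UCK2 had a log2 fold change of -1.20 (limma adjusted p = 0.625) and 845 genes had an unadjusted p under 0.05. A TPM gives no read count for a gene, so no counting error was given for UPP1 or CDA. The paper lists similar totals of clean reads for all libraries.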

Other observations

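The mean level of genes for nucleotide synthesis from small precursors was highest in CON4. Of 6 genes of pyrimidine synthesis, 0 had a log2 fold change above 0 and 6 below (median -0.26), and of 13 genes of purine synthesis 3 lay above and 10 below (median -0.22), against a median of -0.06 over all genes tested. By limma 0 of these 19 genes had an unadjusted p under 0.05. PAICS, an enzyme of purine ring assembly, had 27.2 to 39.6 TPM in DCLI, 33.8 to 37.2 TPM in CON1 to CON3 and 240.5 TPM in CON4, and PRPS1, which makes the ribose donor, had 13.1 to 19.5 TPM in DCLI, 17.9 to 22.5 TPM in CON1 to CON3 and 79.0 TPM in CON4. CTPS2, a CTP synthase, had 15.7 to 23.2 TPM in DCLI, 19.6 to 22.5 TPM in CON1 to CON3 and 80.3 TPM in CON4, and DHODH, which makes orotate, had 10.3 TPM in CON4, against 2.39 to 3.81 TPM in DCLI. UCK2 did not share this pattern, since CON1 and CON3 had more of it than CON4. Without CON4, 4 of the 6 pyrimidine genes were above 0 (median 0.06) and 5 of the 13 purine genes (median -0.04). DHODH stayed below 0 without CON4, at -0.18 (limma unadjusted p = 0.369). Of the 3 adenosine receptors tested, ADORA2A differed by -0.27 (SE 0.30) and ADORA3 by -0.25 (SE 0.30) on the log2 scale, and 0 had an unadjusted p under 0.05 by limma.

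NT5E, SLC28A1 and SLC28A2 varied most between the calves. After each gene's mean was taken off, the tested genes whose log2(TPM + 1) lay nearest to NT5E over the 8 libraries were PHOSPHO1, ONECUT2 and TDP2, with mean absolute differences of 0.31, 0.33 and 0.34. Nearest to SLC28A1 were a gene listed as CYP4F2, SMLR1 and C29H11orf86, at 0.23, 0.26 and 0.28. Nearest to SLC28A2 were LOC782884, another gene listed as CYP4F2 and the apolipoprotein gene APOC2, at 0.49, 0.69 and 0.70. Libraries that share depth, tissue position and cell makeup also share such profiles, so this likeness is a description.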
